A study of Mus musculus with 10 samples.

Results

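Nonsense-mediated decay factors are the proteins that find and destroy mRNAs whose translation stops too early. Their genes were taken by name: Upf1, Upf2, Upf3a, Upf3b, Smg1, Smg5, Smg6, Smg8 and Smg9, which are 9 of the 55421 genes in the count files. All 9 were found once in each of the 10 libraries, and all 9 were among the 20240 genes that passed the filter on low values, a level above 1 RPM (reads scaled to 1000000 reads on genes) in 3 or more of the 6 RNA-seq libraries. RNA-seq was made from whole testes of mice at postnatal day 21 (P21), with 1 pair of testes per library: 3 wild type libraries (replicates 1, 2 and 3) and 3 Mov10-/- libraries (replicates 2, 3 and 4). In 4 further libraries (replicates 1, 2, 3 and 5), RNA bound by MOV10 in wild type P21 testes was sequenced after ultraviolet cross-linking and immunoprecipitation (CLIP-seq). Per the study, the CLIP-seq libraries came from the main radioactive band on the membrane and from a position above it. The labels give only replicate numbers, so that the position of each CLIP-seq library is not known here. The Mov10-/- mice were global knockouts, in which Cre driven by the Actb promoter had removed exons 8 to 14 of Mov10 in all tissues, on a mixed background of 129, C57BL/6 and FVB. A part of such embryos dies before birth, so that the testes came from survivors. The question put to these libraries is whether the genes of this pathway differ in level between genotypes and whether MOV10 holds their mRNAs, since MOV10 and UPF1 are known to occur in 1 complex.

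In nonsense-mediated decay, a ribosome that stops well before the end of the reading frame, often with an exon junction complex still lying downstream, leaves the helicase UPF1 on the mRNA. UPF2 and the UPF3 proteins connect UPF1 to the exon junction complex. The kinase SMG1, held in check by SMG8 and SMG9, phosphorylates UPF1, and SMG5 and SMG6 bind the phosphorylated form. SMG6 cuts the mRNA itself, whereas SMG5 helps to bring in the enzymes that shorten the tail and remove the cap. In the testis the pathway is known to be needed for spermatogenesis, which fails in mice that lack Upf2 in their germ cells.

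UPF1 and MOV10 belong to the same superfamily of RNA helicases, and the Walker A motif, the loop that grips the phosphates of ATP, can be read in both mRNAs. The codons of this motif are shown because they lie in a part of Mov10 that the knockout allele lacks. The 24 bases were read 5′ to 3′ from the GENCODE M21 transcripts (mm10), and capitals mark the 5 positions at which at least 1 of the sequences has another base.
Upf1: ggCcctccAggCacAggCaagact
Mov10: ggGcctccAggTacCggCaagact
Mov10l1: ggAcctccGggAacTggAaagact
The Upf1 codons are at chr8:70338933-70338956 on the minus strand, in the coding part of exon 11, and begin at codon 498 of 1124. Those of Mov10 are at chr3:104800714-104800737 on the minus strand, in exon 10, between the first and last deleted exons (8 and 14). Those of Mov10l1, the germ cell paralog of Mov10, are at chr15:89020389-89020412 on the plus strand, in exon 17. Counted from the first base shown, Mov10 differed from Upf1 by C3G, C12T and A15C, so that 21 of 24 bases were identical. Mov10l1 differed by C3A, A9G, C12A, A15T and C18A, with 19 of 24 identical.

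The RNA-seq libraries held 5083407 to 9230540 reads on genes, and the CLIP-seq libraries 3404 to 4934. In the CLIP-seq libraries 99.48% to 99.57% of all reads were listed as not aligned, and 0.026% to 0.052% were on genes. Mov10 itself was at 114, 96.8 and 119.8 CPM (counts scaled to 1000000 reads by TMM) in wild type replicates 1, 2 and 3, and at 29.2, 26.7 and 26.8 CPM in Mov10-/- replicates 2, 3 and 4. The groups did not overlap, and the log2 fold change of -1.999 (SE 0.12) passed the test (adjusted p = 0.00552, edgeR quasi-likelihood test with Benjamini-Hochberg adjustment over all genes). The adjusted p of Mov10 was 0.111 when Mov10-/- replicate 3 was left out, 0.146 when replicate 4 was, and 0.0516 when wild type replicate 3 was. The deleted exons are 1058 of the 3584 nt of the Mov10 transcript, so that reads on the other exons, 70.5% of its length, still count. Mov10-/- replicate 3 stood apart: 57.2% of its reads were listed as not aligned, against 26.5% to 35.9% in the other 5 RNA-seq libraries, and it had the fewest reads on genes. Wild type replicate 2 also stood apart, with a chi-square per degree of freedom of 16.1 and 18.8 against the other wild type libraries, which was 5.79 between those. Spermatid markers summed to 184, 556 and 121 CPM in wild type replicates 1, 2 and 3. In Mov10-/- replicates 2, 3 and 4 they summed to 38.6, 111 and 56.4 CPM. Of the 9 tested, 5 were lower without overlap of the groups, against 14.1% of all genes. The top of the wild type range is wild type replicate 2 alone, and without it the wild type sums still lay above the Mov10-/- ones. Sertoli cell markers summed to 565 to 646 CPM in wild type and 684 to 854 CPM in Mov10-/- testes. Of the 7 tested, 4 were higher without overlap, against 11.9% of all genes. The Sertoli marker Rhox5 had at most 1 read in any RNA-seq library. Markers of spermatocytes, the meiotic cells of the tubules, summed to 1437 to 1524 CPM in wild type and 1396 to 1596 CPM in Mov10-/- testes. In whole testis, fewer cells of a type and less RNA per cell cannot be told apart, and whether these differences in cell makeup touch the values below was not tested.

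None of the 9 nonsense-mediated decay genes was called between Mov10-/- and wild type testes, where a call needs both a change of more than 2-fold and an adjusted p below 0.05. Among all 20240 genes tested, the quasi-likelihood test called 1 (0.00494%), and that gene was Mov10. At an unadjusted p under 0.05 there were also 0 of 9, against 17.5% of all genes (5.58% higher and 11.9% lower). The 95% confidence interval of the fold change lay within 2-fold in either direction for all 9, against 59.6% of all genes, and the widest limits were 0.735 (Smg5) and 1.55 (Upf1). The 9 lay at percentiles 55.5 to 99.9 of protein-coding genes in wild type CPM. Their median SE was 0.133, against 0.243 over all genes, and no share among genes of a like level was counted. The groups overlapped for each of the 9, where they did not for 26.0% of all genes. How many genes were called over all depended on the test: DESeq2 called 1039 (5.24% of the 19836 genes with an adjusted p), edgeR's exact test 1086 (5.37%) and limma voom 2 (0.00988%). Each of these tools called 0 of the 9, with 0 at an unadjusted p under 0.05.

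Upf1, the helicase at the centre of the pathway, was measured by 1486 to 2096 reads per library. It was at 179, 221 and 225 CPM in wild type replicates 1, 2 and 3, a mean of 208 ± 25.8 (SD, n = 3). In Mov10-/- replicates 2, 3 and 4 it was at 193, 306 and 233 CPM, a mean of 244 ± 56.9 (SD, n = 3). Only Mov10-/- replicates 3 and 4 were above all wild type testes, and replicate 2 lay among them. The log2 fold change was 0.22 (SE 0.18, 95% interval -0.18 to 0.63, adjusted p = 0.543), the largest of the 9 in size. It was 0.03 without Mov10-/- replicate 3. Without Mov10-/- replicate 2 it was 0.36 (unadjusted p = 0.058, adjusted p = 0.446, quasi-likelihood test).

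Upf2 codes for the bridge between UPF1 and the UPF3 proteins. Its levels were 142, 138 and 134 CPM in wild type (138 ± 3.54) and 131, 139 and 128 CPM in Mov10-/- testes (132 ± 5.82). The 6 values overlapped within a narrow band, with a highest to lowest ratio of 1.11, and the log2 fold change was -0.06 (95% interval -0.26 to 0.14, adjusted p = 0.738).

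Upf3a and Upf3b are paralogs, the first on chromosome 8 and the second on X, a chromosome whose genes are silenced during male meiosis. Upf3a was at 102, 117 and 107 CPM in wild type (109 ± 7.35) and at 87.7, 125 and 104 CPM in Mov10-/- testes (106 ± 18.6). Here the Mov10-/- libraries held both the lowest and the highest of the 6 values, and the log2 fold change was -0.05 (95% interval -0.37 to 0.28, adjusted p = 0.883). Upf3b was at 49.1, 47.8 and 51.3 CPM in wild type (49.4 ± 1.79) and at 56.8, 45.8 and 46.2 CPM in Mov10-/- testes (49.6 ± 6.25). Again the Mov10-/- values lay on both sides of the wild type ones, with replicate 2 above and replicates 3 and 4 below. The log2 fold change of Upf3b was 0.01 (95% interval -0.30 to 0.32, adjusted p = 0.982), where the median over 661 X-linked protein-coding genes was 0.18.

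Smg1, the kinase, had the most reads of the 9, from 2492 to 4635 per library. It was at 498, 487 and 498 CPM in wild type (494 ± 6.21) and at 493, 512 and 509 CPM in Mov10-/- testes (505 ± 10.3). Its highest value was 1.05 times its lowest, the narrowest span of the 9, and its SD of log2(CPM + 0.5) over the 6 libraries, 0.03, was at percentile 0.114 of that of protein-coding genes. The log2 fold change was 0.03 (95% interval -0.17 to 0.23, adjusted p = 0.873).

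Smg8 and Smg9 code for the subunits that restrain SMG1. Smg8 was at 80.1, 70.5 and 79.8 CPM in wild type (76.8 ± 5.44) and at 76.4, 76.5 and 81.2 CPM in Mov10-/- testes (78.0 ± 2.75), with a log2 fold change of 0.02 (95% interval -0.21 to 0.26, adjusted p = 0.920). Smg9 was at 129, 152 and 139 CPM in wild type (139.9 ± 11.8) and at 113, 188 and 141 CPM in Mov10-/- testes (147 ± 38.1). The 3 Mov10-/- values of Smg9 spanned more than the wild type ones, with replicate 2 lowest and replicate 3 highest of all 6. Its log2 fold change was 0.07 (95% interval -0.35 to 0.49, adjusted p = 0.860).

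Smg5, the adaptor that binds phosphorylated UPF1, was at 241, 282 and 229 CPM in wild type (250.4 ± 27.6) and at 194, 272 and 229.6 CPM in Mov10-/- testes (232 ± 39.2). Smg6, the endonuclease, was at 209.5, 244 and 216 CPM in wild type (223 ± 18.2) and at 193, 235 and 211 CPM in Mov10-/- testes (213 ± 20.8). In both genes wild type replicate 2 was the highest library and Mov10-/- replicate 2 the lowest. The log2 fold changes were -0.11 for Smg5 (95% interval -0.44 to 0.22, adjusted p = 0.712) and -0.07 for Smg6 (95% interval -0.32 to 0.19, adjusted p = 0.773). Without wild type replicate 2 they were -0.020 and -0.00017, without Mov10-/- replicate 2 -0.0034 and -0.0063, and without Mov10-/- replicate 3 -0.24 and -0.14. The 9 log2 fold changes had a median of 0.01, beside 0.03 over all genes tested and 0.06 over protein-coding genes.

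**Figure D1:**
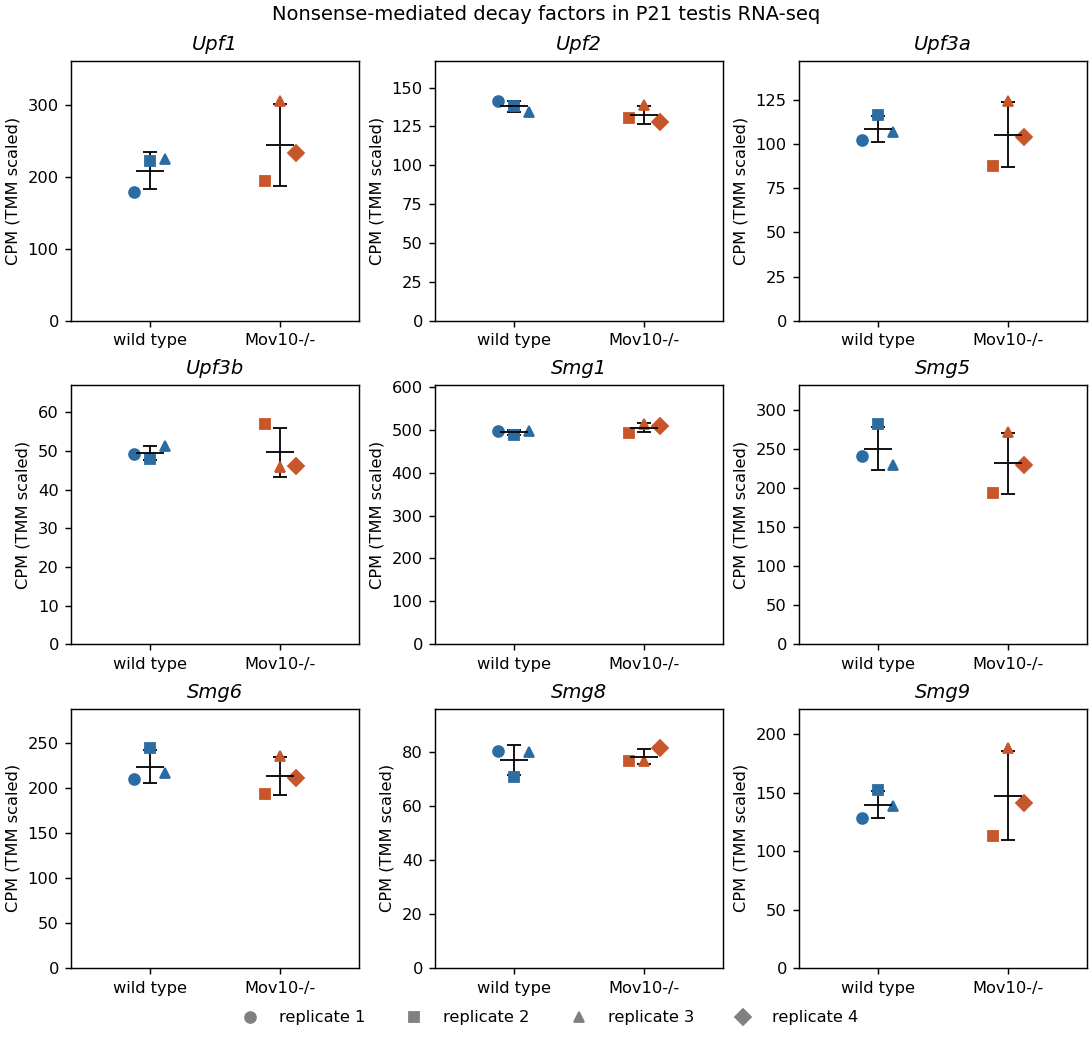
Each panel plots the CPM (TMM scaled, axis from 0) of 1 nonsense-mediated decay gene in 3 wild type (blue) and 3 Mov10-/- (orange) testes, with a marker shape per replicate number and black bars for the mean ± SD (n = 3). The groups overlap in every panel, and Mov10-/- replicate 3 is the highest point for Upf1 (306 CPM), Upf3a (125 CPM), Smg9 (188 CPM) and, by a small margin, Smg1 (512 CPM).

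How far the 6 libraries lay apart differed from gene to gene. The highest library was 1.71 times the lowest for Upf1 and 1.67 times for Smg9, against 1.05 for Smg1, 1.11 for Upf2 and 1.15 for Smg8. In Mov10-/- replicate 3, the level of Upf1 was 0.54 above the mean of the other 5 libraries on the log2 scale and that of Smg9 was 0.48 above, whereas Smg8 was at -0.02 and Upf3b at -0.13. The order of the 9 genes by this difference was close to their order by GC content of the representative transcript, with a Spearman rho of 0.9 over 9 genes from the same libraries. Smg9 (60.3% GC) and Upf1 (57.9%) are the richest in GC of the 9, and Upf3b (42.5%), Upf2 (43.5%) and Smg1 (44.9%) the poorest.

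The same trend ran through the whole library. Across 15724 protein-coding genes, those of at most 42.0% GC had a median deviation of -0.23 (log2, from the mean of the 6 libraries) in Mov10-/- replicate 3, and those of at least 58.4% GC a median of 0.25. Wild type replicate 1 went the other way, with medians of 0.11 and -0.17. For the genes of at least 58.4% GC, the medians were 0.09, 0.25 and 0.05 in Mov10-/- replicates 2, 3 and 4. In wild type replicates 1, 2 and 3 they were -0.17, -0.18 and -0.003, so that at this end GC and genotype cannot be told apart. The medians of the genes of at most 42.0% GC overlapped between genotypes. When a GC trend per library was taken out, the log2 fold change of Upf1 was 0.06 instead of 0.22, that of Smg9 -0.16 instead of 0.07, and that of Smg5 -0.24 instead of -0.11. Without Mov10-/- replicate 3 and wild type replicate 1, the libraries of strongest GC trend, the values were -0.08 for Upf1, -0.21 for Smg9, -0.28 for Smg5, -0.20 for Smg6 and -0.24 for Upf3a. These fits were added after the data were seen, and in each of them 0 of the 9 genes passed the test.

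**Figure D2:**
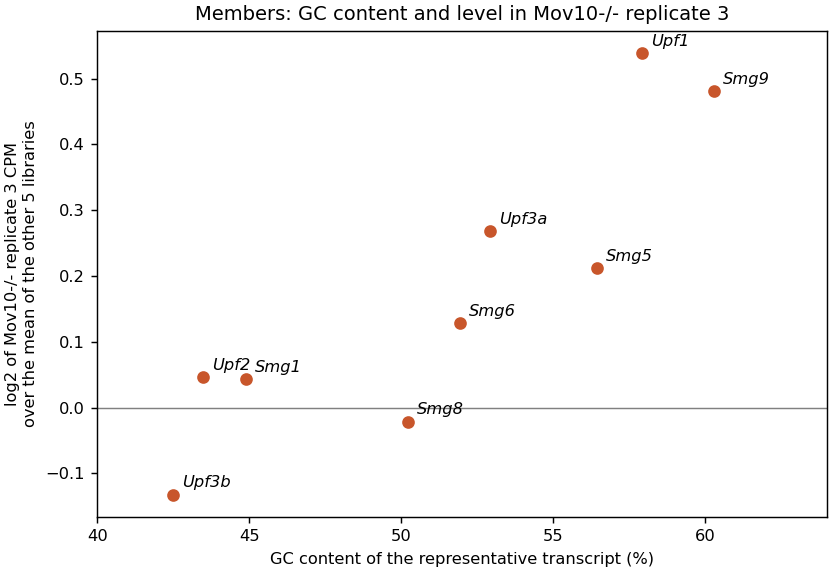
The x axis gives the GC content (%) of the representative transcript of each of the 9 genes, and the y axis the log2 of its CPM in Mov10-/- replicate 3 over the mean of the other 5 RNA-seq libraries; each point is 1 gene. The points climb from Upf3b (42.5% GC, -0.13) to Upf1 (57.9% GC, 0.54) and Smg9 (60.3% GC, 0.48).

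Upf1 and Smg9 also resembled each other across the 6 libraries, with a Pearson correlation of log2 CPM of 0.898. Smg9 was not singular in this, since 457 of 12331 protein-coding genes of at least 10 CPM were more like Upf1. The correlations of Upf1 with the other members ran from -0.60 (Upf3b) to 0.76 (Upf3a). The genes most like Upf1 were E4f1 (r = 0.996), Ahdc1 (r = 0.993) and Mrpl37 (r = 0.993). E4f1 was at 63.1, 77.0 and 81.4 CPM in wild type and at 69.1, 104 and 81.8 CPM in Mov10-/- testes, so that its lowest and highest libraries, wild type replicate 1 and Mov10-/- replicate 3, were those of Upf1. The GC content of these 3 genes was 58.5%, 59.9% and 55.3%, against a median of 50.3% over the genes compared. All of these correlations come from the same 6 libraries and are descriptions.

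Per kilobase of annotated exons, Upf1 had the highest level of the 9 in wild type testes, 45.1 ± 5.59 RPKM (CPM per kilobase, SD, n = 3). Smg9 (37.8 ± 3.19 RPKM) and Smg5 (36.0 ± 3.96 RPKM) came next, and in this order each of these genes overlapped its neighbour in the range of the 3 wild type testes. Smg6 (26.4 ± 2.16 RPKM), Upf2 (25.2 ± 0.647 RPKM) and Smg8 (23.9 ± 1.69 RPKM) formed a second run of overlapping neighbours, separated from Smg5. Smg1 (20.6 ± 0.259 RPKM), Upf3a (18.5 ± 1.25 RPKM) and Upf3b (12.4 ± 0.448 RPKM) followed, each clear of its neighbours. The factors were therefore within a span of 3.65-fold. Smg1 had the most reads but was the seventh in level per length, because its annotated exons cover 23984 nt.

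The order depended on the length used. Upf3a was the eighth by all annotated exons (5865 nt) but the second by coding sequence (1266 nt), at 85.9 ± 5.80 RPKM. By the longest transcript, Smg9 was the highest at 62.4 ± 5.26 RPKM and Upf3b the lowest at 19.4 ± 0.702 RPKM, 3.22-fold apart. By coding sequence Smg9 and Smg8 were the ends, 3.47-fold apart. Under each of 4 definitions of length Upf1, Smg5 and Smg9 were among the highest 4, and the span stayed between 2.96-fold and 3.65-fold.

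**Figure D3:**
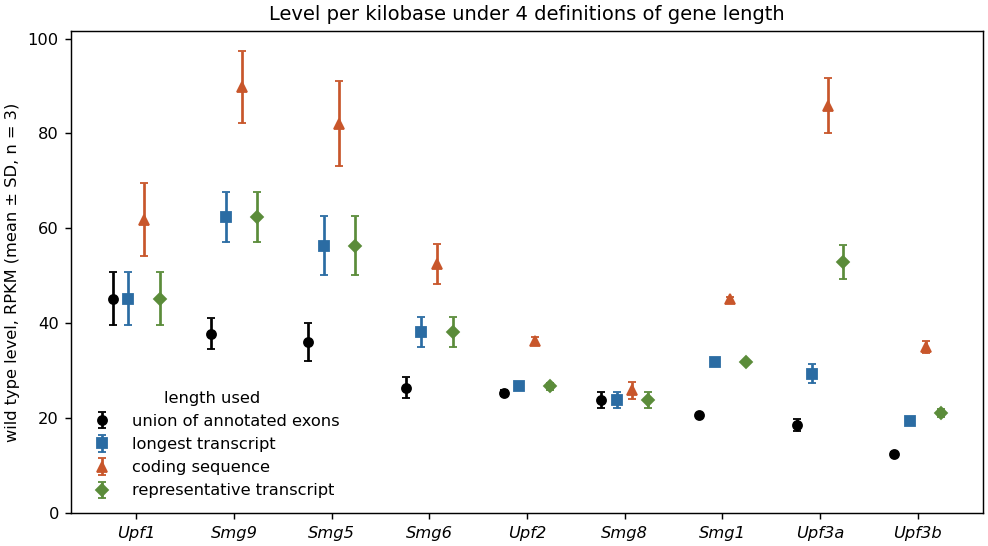
Wild type levels of the 9 genes in RPKM (mean ± SD over 3 testes, y axis from 0) under 4 definitions of gene length, 1 marker shape each; genes are ordered by the level per kilobase of all annotated exons. Upf3b is lowest by 3 of the 4 definitions, and Upf3a moves most, from 18.5 to 85.9 RPKM.

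The balance of the UPF3 paralogs was read within each library, where scaling plays no part. Upf3b took 32.5%, 29.1% and 32.4% of the reads of the pair in wild type replicates 1, 2 and 3, and 39.3%, 26.9% and 30.7% in Mov10-/- replicates 2, 3 and 4. Mov10-/- replicate 2 was the highest and replicate 3 the lowest of the 6. The log2 ratio of Upf3b to Upf3a reads was -1.14 ± 0.13 in wild type and -1.08 ± 0.42 in Mov10-/- testes (SD, n = 3), a difference of 0.05 that did not pass an exact two-sided permutation test (p = 0.9, where 0.1 is the smallest that 20 splits allow). The difference was -0.17 without Mov10-/- replicate 2 and 0.24 without Mov10-/- replicate 3.

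The 58 other genes of the pathway and its neighbourhood, all of which passed the filter, were not called either, and 0 of 58 had an unadjusted p under 0.05 in the quasi-likelihood test (DESeq2 and limma voom gave 2 each and the exact test 1, with none called). Their log2 fold changes ran from -0.27 to 0.90 with a median of 0.11, and the lowest adjusted p was 0.291. Groups did not overlap for 9 genes, all higher in Mov10-/- testes, against 11.9% of all genes in that direction, and for 0 in the other, against 14.1%. The 9 were Pnrc2, Rbm8a, Gspt1, Gspt2, Helz, Gadd45b, Atf4, Stau1 (log2 fold change 0.16) and Ddx6 (0.05), of which the last 4 are named after their values were seen.

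Of the 6 other decay factors, none passed the test. Pnrc2, a coactivator of decapping, was at 47.0, 47.8 and 55.3 CPM in wild type and 62.5, 55.7 and 60.0 CPM in Mov10-/- testes, above all wild type values by a small margin (log2 fold change 0.25, adjusted p = 0.342). Ruvbl1, an ATPase that assists kinases of the SMG1 family, had a log2 fold change of 0.15, and Nbas, the most abundant of the list at 231 ± 20.1 CPM in wild type, had -0.13.

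The exon junction complex marks spliced junctions on mRNA, and 0 of its 9 genes passed the test. Its core subunit Rbm8a was at 50.4, 47.5 and 53.9 CPM in wild type and at 58.1, 62.3 and 58.9 CPM in Mov10-/- testes, with no overlap (log2 fold change 0.24, adjusted p = 0.324). The helicase subunit Eif4a3 had a log2 fold change of 0.19 and the peripheral factor Acin1 -0.02. Among 7 genes of translation termination and of the mRNA ends, Gspt2, a release factor paralog on X, was at 50.8, 32.3 and 47.7 CPM in wild type and at 68.7, 54.5 and 54.9 CPM in Mov10-/- testes. These groups did not overlap, and the log2 fold change was 0.45 (95% interval -0.0050 to 0.90, adjusted p = 0.291). The median over 661 X-linked protein-coding genes was 0.18. Gspt1, which codes for the release factor that contacts UPF1, was at 118 ± 0.994 CPM in wild type and 129 ± 5.73 CPM in Mov10-/- testes (log2 fold change 0.13, adjusted p = 0.471), and the poly(A) binding protein gene Pabpc1 had 0.12.

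Enzymes and cofactors of mRNA decay (9 genes) included Dcp1b, a subunit of the decapping complex, with the lowest log2 fold change of all 58 genes, -0.27 (89.5, 115 and 102 CPM in wild type against 70.2, 96.6 and 87.1 CPM in Mov10-/-, adjusted p = 0.383). Cnot8, a deadenylase, had a log2 fold change of 0.13 and Edc4, a scaffold of decapping, 0.10. In other decay routes that use UPF1 (5 genes), Zc3h12a, an endonuclease, was low, 5.08 ± 0.385 CPM in wild type and 7.45 ± 2.28 CPM in Mov10-/- testes (log2 fold change 0.55, adjusted p = 0.417). Stau2, a binder of double-stranded RNA, had a log2 fold change of 0.23, and Tdrd6, a Tudor protein of germ cell granules, -0.14. Among the UPF1-like helicases (8 genes), Mov10 was the exception described above. Helz was at 321, 262 and 314 CPM in wild type and 365, 326 and 337 CPM in Mov10-/- testes without overlap (log2 fold change 0.20, adjusted p = 0.396).

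Transcripts known from other cells as targets of nonsense-mediated decay were listed as a readout of the pathway (15 genes). Together they summed to 494 to 534 CPM in wild type and 546 to 574 CPM in Mov10-/- testes. These sums did not overlap, which held for no other of the 7 pathway lists. The sum was not tested. Groups did not overlap for 26.0% of all single genes, and for 11.9% with higher values in Mov10-/- testes. Single genes did not pass the test: 0 of 15 were called, and 0 had an unadjusted p under 0.05. The median log2 fold change of the 15 was 0.15, beside 0.03 over all genes. In the other pathway lists the medians ran from 0.05 to 0.16, so that a median of this size is not particular to the targets. Slc7a11, the cystine transporter, had the largest difference, 27.4, 11.0 and 5.26 CPM in wild type against 43.4, 15.2 and 22.5 CPM in Mov10-/- testes (log2 fold change 0.90, 95% interval -0.50 to 2.30, adjusted p = 0.481). Atf3, a stress transcription factor, was near the filter at 0.548 to 4.404 CPM in wild type and had a log2 fold change of 0.66 (adjusted p = 0.638). Tbl2, the most abundant target, was at 199.6 ± 7.78 CPM in wild type and 199.3 ± 27.7 CPM in Mov10-/- testes (log2 fold change -0.0033). The groups did not overlap for 2 of the 15 targets, both higher in Mov10-/- testes, against 11.9% of all genes in that direction. These were Gadd45b (log2 fold change 0.54, adjusted p = 0.296) and Atf4 (0.22, adjusted p = 0.354). Several of the 15 genes answer to stress as well as to decay. Peritubular cell markers also summed higher in Mov10-/- testes, 371 to 487 CPM against 297 to 362 CPM, as did the Sertoli markers above, and the part of cell makeup in the sum of targets was not tested.

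**Figure D4:**
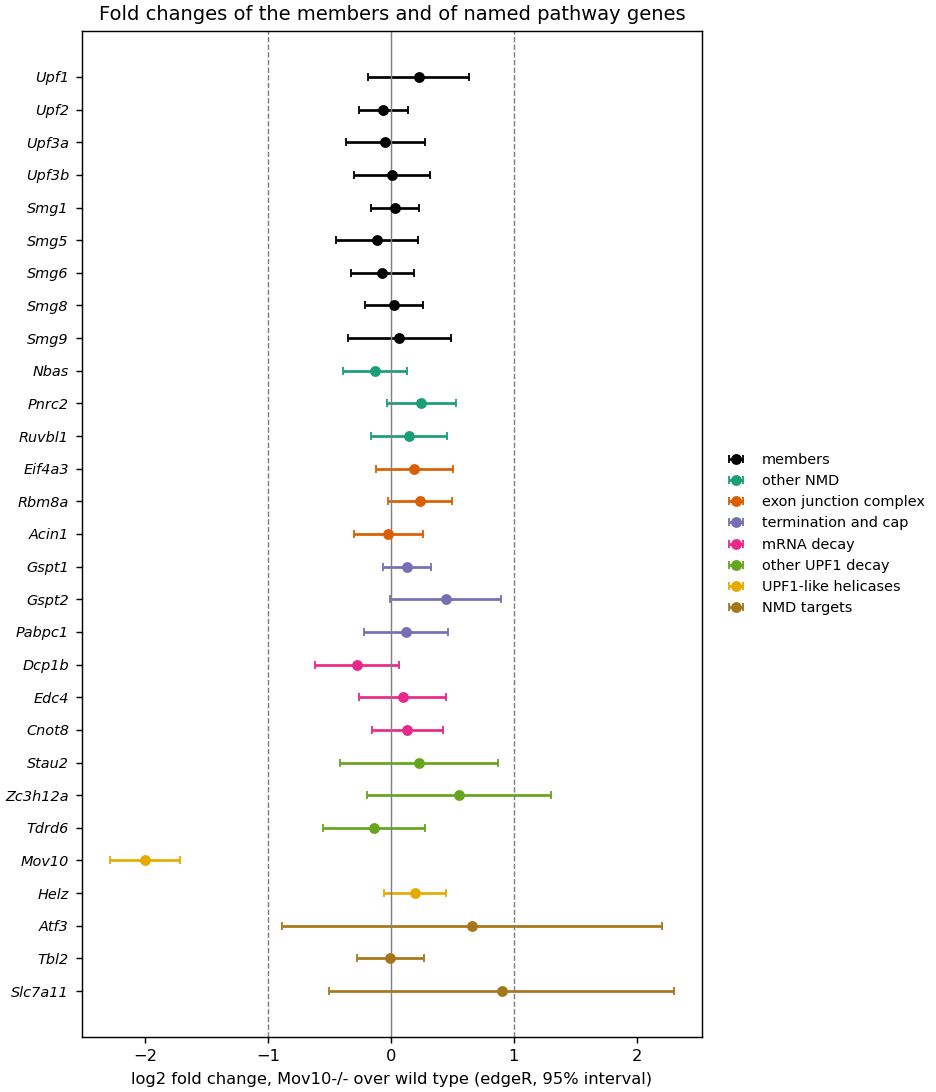
Log2 fold changes (Mov10-/- over wild type, edgeR, points) with 95% intervals (bars) for the 9 nonsense-mediated decay genes (black) and for genes named from 7 lists (colours), with dashed lines at a 2-fold change. All 9 black intervals cross 0 and stay inside the dashed lines, while Mov10 lies at -1.999.

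MOV10 CLIP-seq gave few reads on these mRNAs. Smg1 had 2, 2, 2 and 0 reads in replicates 1, 2, 3 and 5, Smg5 had 0, 2, 0 and 3, and Smg6 had 0, 0, 0 and 2. The other 6 genes, Upf1 among them, had 0 reads in all 4 libraries. Thus 3 of 9 had at least 1 read, where 35.6% of 6980 protein-coding genes with wild type levels in the same range did, and 18.1% of all 20240 genes. None of the 9 reached 10 reads, the minimum set for a ratio per gene, which 1.31% of all genes did.

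The difference between any 2 of replicates 1, 2 and 3 was below the sampling noise (chi-square per degree of freedom 0.219 to 0.237; with replicate 5 it was 1.63 to 1.93, and for pairs of RNA-seq libraries of a genotype 4.33 to 18.8). They were averaged and counted as 1 sample, which leaves 8526 reads on genes from 2 samples. On that count the 9 mRNAs together had 7.67 reads, where 14.3 would be in proportion to their wild type RNA-seq level. The ratio was 0.536, with a 95% Poisson interval of 0.226 to 1.07 that covers counting error only and includes 1. The scale of this ratio rests on the library total. With all reads not listed as unaligned as the total in both assays, 122 reads would be in proportion. The ratio was then 0.0628, with a 95% Poisson interval of 0.0265 to 0.125 that excludes 1. That total includes reads outside genes and reads aligned to more than 1 place. On the same count, 8526 of 113320 such CLIP-seq reads were on genes, against 8386939 of 12881428 in wild type replicate 1. This total therefore lowers the ratio of any gene, and the interval shows no depletion of these 9 mRNAs.

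With reads on genes as the total, no single gene could be placed above or below its RNA level at this depth. Smg5 had 3.67 reads where 2.12 would be in proportion (interval 0.925 to 9.76 reads), Smg6 2 where 1.89 would be (0.242 to 7.22), and Smg1 2 where 4.19 would be (0.242 to 7.22). For the 6 genes without a read, 0.419 to 1.76 reads would be in proportion. The 3 reads that a count of 0 allows would correspond to 1.70 times the RNA-seq level for Upf1 and 7.16 times for Upf3b. With this total, binding of the Upf1 mRNA in proportion to its level, or below it, would not have been detectable. With all reads not listed as unaligned as the total this turns: 15.0 reads on Upf1 would be in proportion, and the 3 reads that a count of 0 allows correspond to 0.199 times its RNA-seq level. On that total the upper limit was under 1 for 9 of the 9 genes, from 0.199 (Upf1) to 0.839 (Upf3b). With reads on genes it was under 1 for 0 of 9. For a count of 0 the limit was set at 3 reads, lower than an interval computed as for the other genes would give. With such an interval the limit of Upf3b, the nearest to 1, may not stay under 1. Since a total of all reads not listed as unaligned lowers the ratio of any gene, the 9 of 9 cannot be read as a trait of these genes. The share over all genes was not counted.

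**Figure D5:**
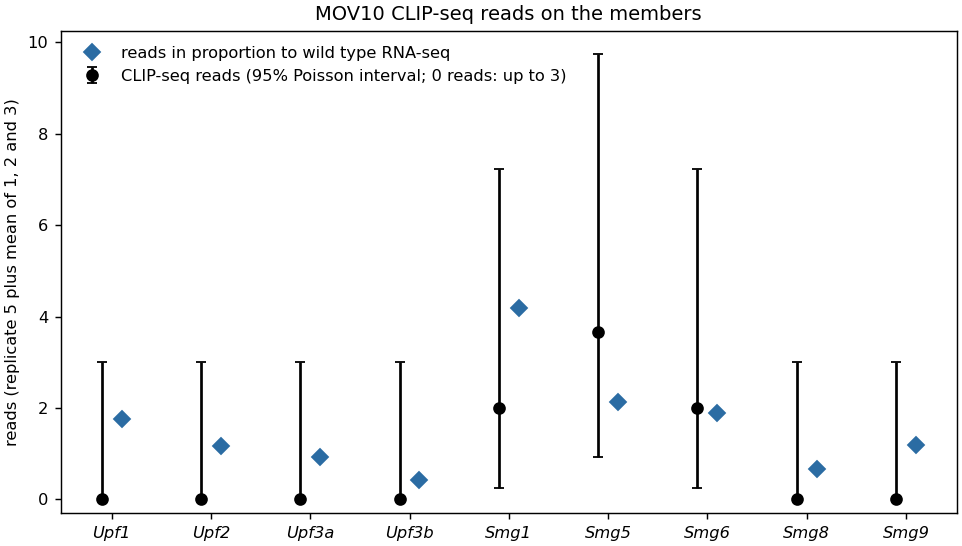
CLIP-seq reads on each of the 9 genes (black points, replicate 5 plus the mean of replicates 1, 2 and 3, with 95% Poisson intervals, or up to the 3 reads that a count of 0 allows) beside the reads in proportion to the wild type RNA-seq level (blue diamonds). The y axis is in reads, of 8526 on genes in all, which are the library total here; every bar includes its diamond, from 0.419 reads for Upf3b to 4.19 for Smg1.

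Long 3′ UTRs and ATGs in the 5′ UTR, which the choice by name did not use, were counted beside their share in other genes. The shares were near each other, and 9 genes are too few to show a difference or a likeness. A 3′ UTR of at least 1000 nt was annotated on the representative transcript of 4 of 9 (Upf2 1261 nt, Smg1 4233 nt, Smg5 1230 nt and Smg6 1498 nt), against 45.8% of 15724 protein-coding genes. The shortest were those of Smg8 (221 nt) and Smg9 (400 nt). At least 1 ATG lay in the 5′ UTR of Upf2, Smg1, Smg5 and Smg9, 4 of 9, against 50.5%. The 3 genes with a CLIP-seq read were among the 4 with a 3′ UTR of at least 1000 nt, which is a description of 9 genes and no test. The same 3 genes also had the highest wild type means of the 9, Smg1 at 494, Smg5 at 250 and Smg6 at 223 CPM. Upf1 came next at 208 CPM, so that 3′ UTR length and level cannot be told apart here.

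In mm10 the genes lie on 6 chromosomes: Upf1 at chr8:70331525-70353278 (minus strand, 24 exons), Upf3a at chr8:13785615-13799193 (plus, 9 exons), Upf2 at chr2:5951469-6056703 (plus, 22 exons) and Upf3b at chrX:37091678-37110322 (minus, 10 exons). Smg1 is at chr7:118131308-118243670 (minus, 63 exons), Smg9 at chr7:24399619-24422778 (plus, 14 exons), Smg5 at chr3:88336260-88362338 (plus, 22 exons), Smg6 at chr11:74925823-75164448 (plus, 19 exons) and Smg8 at chr11:87077732-87086774 (minus, 4 exons). Exons of genes on the opposite strand cover 1.47% of the exon length of Upf1 and 2.88% of that of Smg6, and none of the others. The library kit marks strand, but the strand setting of the counting is not given in the sources used here. Reads from such stretches may therefore have been listed as ambiguous and left out of the counts.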

How the data were processed

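Raw counts per gene (Ensembl), with no normalization, were deposited by the authors for 6 RNA-seq and 4 CLIP-seq libraries of mouse P21 testis. Per the study's methods, RNA-seq reads were trimmed, aligned to mm10 with STAR and counted with htseq-count on Ensembl 99; the strand setting is not given in the sources used here. Gene names and coordinates came from GENCODE M21 (mm10), which matched 55240 of 55421 genes; the Mov10 exon numbers assume its 21-exon transcript.

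The 9 genes and all lists were chosen with earlier results of these data known. Counts were tested with edgeR 4.0.16 in R 4.3.3 (TMM, quasi-likelihood, Benjamini-Hochberg adjustment over the 20240 genes with more than 1 RPM in 3 or more RNA-seq libraries; called at a fold over 2 and adjusted p under 0.05). DESeq2 1.42.0, the exact test, limma 3.58.1 (voom), other scalings and filters, a replicate block, a GC correction and each library left out were alternatives. The script was tested on simulated data. Named beside the 9 genes and Mov10 were, per pathway list, the 2 genes with the largest absolute log2 fold change and the most abundant; and the 3 genes most like Upf1. One gene that this rule names is not reported here. Tables and figures used Python 3.11.15. RNA-seq replicates are separate mice.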

Additional observations from a re-analysis of the deposited data

Results flagged for a closer look

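Among the 4 CLIP-seq libraries, replicate 5 lay apart from the other 3 for 2 of the genes. Smg1 had 0 reads in replicate 5 and 2 reads in each of replicates 1, 2 and 3. Smg6 had 2 reads in replicate 5 and 0 in each of the others. In each case the gap filled the whole range of the 4 values, which passes Dixon's rule. The rate of about 1 in 20 groups that chance gives under that rule does not hold for these tied counts: replicates 1, 2 and 3 differed by less than the sampling noise and were counted as 1 sample, so that replicate 5 passes wherever it differs from 3 equal values. Both cases rest on 2 reads and carry no test.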

How the results depend on the processing

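The count of 0 called among the 9 genes, and among the 58 other pathway genes, held under all 17 alternatives, and the lowest adjusted p of any of the 9 was 0.384. Of the 153 log2 fold changes recomputed for the 9 genes, 133 kept their direction and 20 turned, between -0.28 and 0.36 in all. Turned values were, for Upf1, -0.045 (GC correction with replicate block) and -0.077 (without both libraries of strongest GC trend). For Upf2 it was 0.018 (GC correction with replicate block). Upf3b gave -0.0039 under RLE normalization, -0.0023 with no filter, -0.0024 by DESeq2 and -0.017 above 5 RPM, and Smg8 -0.00051 above 5 RPM. Smg9 gave -0.16 (GC correction), -0.22 (with replicate block) and -0.21 (without both libraries). Leaving out 1 library gave ranges of -0.18 to 0.068 for Upf3a, -0.10 to 0.059 for Upf3b, -0.034 to 0.051 for Smg8, -0.14 to 0.23 for Smg9, 0.03 to 0.36 for Upf1, -0.24 to -0.0034 for Smg5 and -0.14 to -0.00017 for Smg6. For the Upf3b to Upf3a log2 ratio the range was -0.17 to 0.24, and with the replicate block it was 0.14.

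Over all genes, 1 was called, against 6 with library size alone, 10 with no filter, 1039 by DESeq2, 1086 by the exact test, 2 by limma voom, 184 with the replicate block, 3 with GC correction and replicate block, 0 to 2 with 1 library left out, and 0 without both libraries of strongest GC trend. The cause was not tested. The ratio of CLIP-seq to RNA-seq RPM was 0.443 to 0.571 with 1 library left out and 0.0628 over all reads not listed as unaligned. On the latter total the upper limit was under 1 for 9 of the 9 genes, against 0 of 9 over reads on genes. For genes with 0 reads this limit was set at 3 reads, and the 9 of 9 may depend on that for Upf3b. A total of all reads not listed as unaligned lowers the ratio of any gene, so that the 9 of 9 is no trait of these genes. Genotypes share only replicate numbers 2 and 3, so that with the replicate block the genotype difference rests on the libraries of these numbers alone. Deviations of same-numbered libraries correlated at -0.478 and -0.333, so that the numbers were not taken as pairs. CLIP-seq depth and the library total limit every statement on binding.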
